A study of Mus musculus with 6 samples.

Results

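Protein-coding genes for the eukaryotic translation initiation factors (symbols beginning Eif1 to Eif6) and elongation factors (Eef1 and Eef2) were followed in RAW264.7 cells. They were chosen by symbol alone, leaving out the Eif2ak kinases, which gave 57 genes of 41921 in the table: 48 Eif and 9 Eef genes. RAW264.7 is a virus-transformed mouse monocyte/macrophage line that the cytokine RANKL can drive towards osteoclasts, the cells that resorb bone. All 6 RNA sequencing libraries were labelled wild type and osteoclast differentiation, and the protocol gives 50 ng/mL RANKL from 3 days after confluence for every sample. There were 3 libraries labelled RANKL and 3 labelled albiflorin, a monoterpene glycoside of peony root. Only that shared protocol says that the albiflorin cells also received RANKL. No label states how much albiflorin was used or for how long, and no untreated cells were analysed here. Being 1 transformed line, the cells stand in for primary osteoclast precursors only in part.

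Initiation brings a ribosome to the start codon of an mRNA. eIF2 carries the initiator tRNA and is recharged with GTP by eIF2B, the large eIF3 complex holds the small ribosomal subunit, and eIF4F binds the mRNA cap through eIF4E, the scaffold eIF4G and the helicase eIF4A. The 4E-binding proteins compete with eIF4G for eIF4E until the kinase mTOR phosphorylates them. Elongation then depends on eEF1, which delivers aminoacyl-tRNA, and on eEF2, which moves the ribosome along the mRNA. In osteoclast precursors this apparatus supports the protein synthesis that differentiation requires, and macrophages use mTOR and eIF2 signalling to set its rate. RNA levels do not show the phosphorylation by which most of this control works.

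The 6 libraries held 13673284 to 15489482 counts, and correlated at 0.982 to 0.992 across genes on the log2 scale (Pearson). The labels name no separate cultures behind the replicates, so every p-value rests on library-to-library spread that may be technical. The 7 macrophage markers with a row of their own name, among them Adgre1, Cd68 and Csf1r, summed to 3880 to 4180 CPM (read counts scaled to a common library size, corrected by TMM) with RANKL and 4010 to 4180 with albiflorin. The 8 osteoclast markers summed to 53.1 to 59.5 and 61.5 to 71 CPM. The calcitonin receptor gene Calcr, 1 of these 8, was at 0 counts throughout, where 3 counts in the smallest library would be 0.219 CPM, a limit for counting error alone. Markers of fibroblasts, epithelium, endothelium and T cells summed to 3.52 CPM or less per list, with Dcn, Krt8, Krt18, Cdh1 and Cd3e at 0 throughout.

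Of the 57 genes 53 passed the filter on low counts and 4 did not. The 4 untested genes were the tissue-restricted paralogues Eif4e1b, Eif5a2 and Eef1a2, with 0 to 2 counts per library, and the 4E-binding protein gene Eif4ebp3, with 7 to 12 counts per library. No row under the symbols Eef1a1, Eif2s3x or Eif2s3y was analysed here, so the main eEF1A gene and the gamma subunit of eIF2 are missing from this account. Together the 57 genes took 1.72% to 1.83% of the counts in the RANKL libraries and 1.74% to 1.78% in the albiflorin libraries, ranges that overlap. Without Eef2 the shares were 1.37% to 1.44% and 1.44% to 1.48%.

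Levels can be compared between genes only per length, here on the FPKM scale that the authors deposited. Eef2, the translocase, was the highest by this measure at 1389 ± 95.1 FPKM with RANKL and 1168 ± 118 with albiflorin (SD, n = 3 per group). It was followed by Eif5a, which helps ribosomes through poorly reactive peptide bonds, at 499.1 ± 26.5 and 523.6 ± 5.56 FPKM. The eIF3 subunit genes ranged from 11.9 FPKM (Eif3j1, not a core subunit) to 259.8 FPKM (Eif3h) with RANKL. Among the 8 core subunit genes the lowest was Eif3m at 59.4 FPKM, although the complex holds its core subunits in equal number. Eef2k, the kinase that inhibits eEF2, was the lowest tested member at 2.18 ± 0.0744 and 2.35 ± 0.0078 FPKM. The levels rest on the gene lengths listed in the table, and these differ from GENCODE mRNA lengths for some members. Eif4ebp2 is listed at 1769 bases against an mRNA of 5784 nt, and Eif3m at 2590 bases against 1283 nt. The place of Eif3m as the lowest core subunit gene depends on that listed length.

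**Figure D1:**
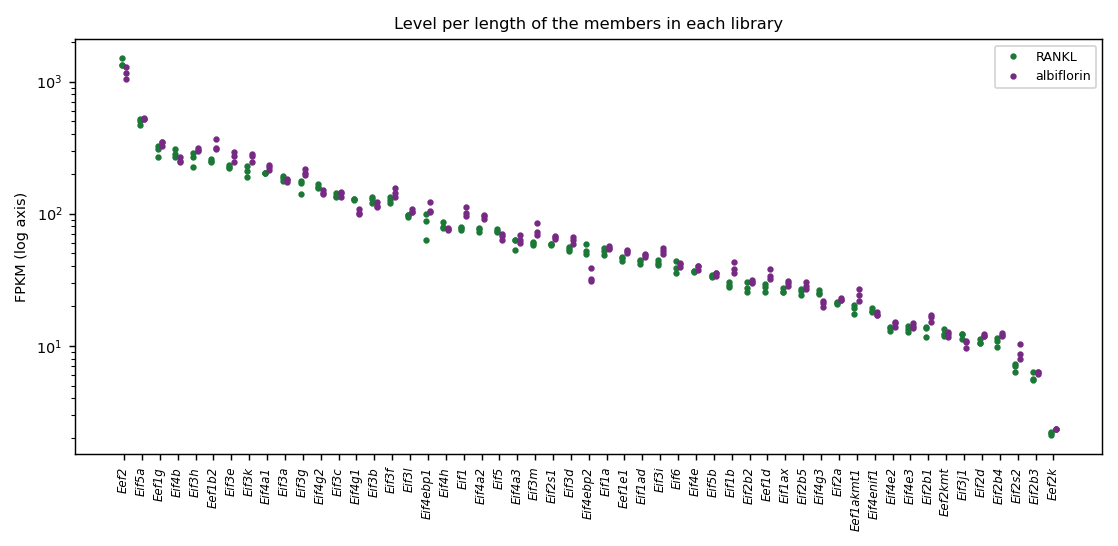
FPKM (log axis) of the members with a mean of at least 1 FPKM in the RANKL libraries, ordered by that mean, with 1 point per library and the groups side by side. Eef2 stands at the top and Eef2k at the bottom, and for each member the points of the groups lie near each other compared with the whole span.

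Between albiflorin and RANKL, 18 of the 53 tested members rose, 4 fell and 31 did not pass the test (edgeR quasi-likelihood test, adjusted p under 0.05 over all genes). Among all 13158 genes tested the share called was 23.8%, 12.4% higher and 11.4% lower, against 34.0% and 7.55% of the tested members. Among the 8376 genes at least as abundant as the lowest tested member, 32.5% were called, 16.6% higher and 15.9% lower. The median log2 fold change of the tested members was 0.15, against 0.0056 over all genes tested. The changes were small, with a median absolute log2 fold change of 0.33 among called members, and only 4 called members moved by at least 0.4, as did 7.76% of all genes tested. In 38 of 53 members the 3 albiflorin libraries lay entirely to 1 side of the 3 RANKL libraries (29 above, 9 below), where 40.1% of all tested genes did so (20.8% above, 19.3% below). In bulk RNA fewer cells of a type and less RNA per cell cannot be told apart.

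**Figure D2:**
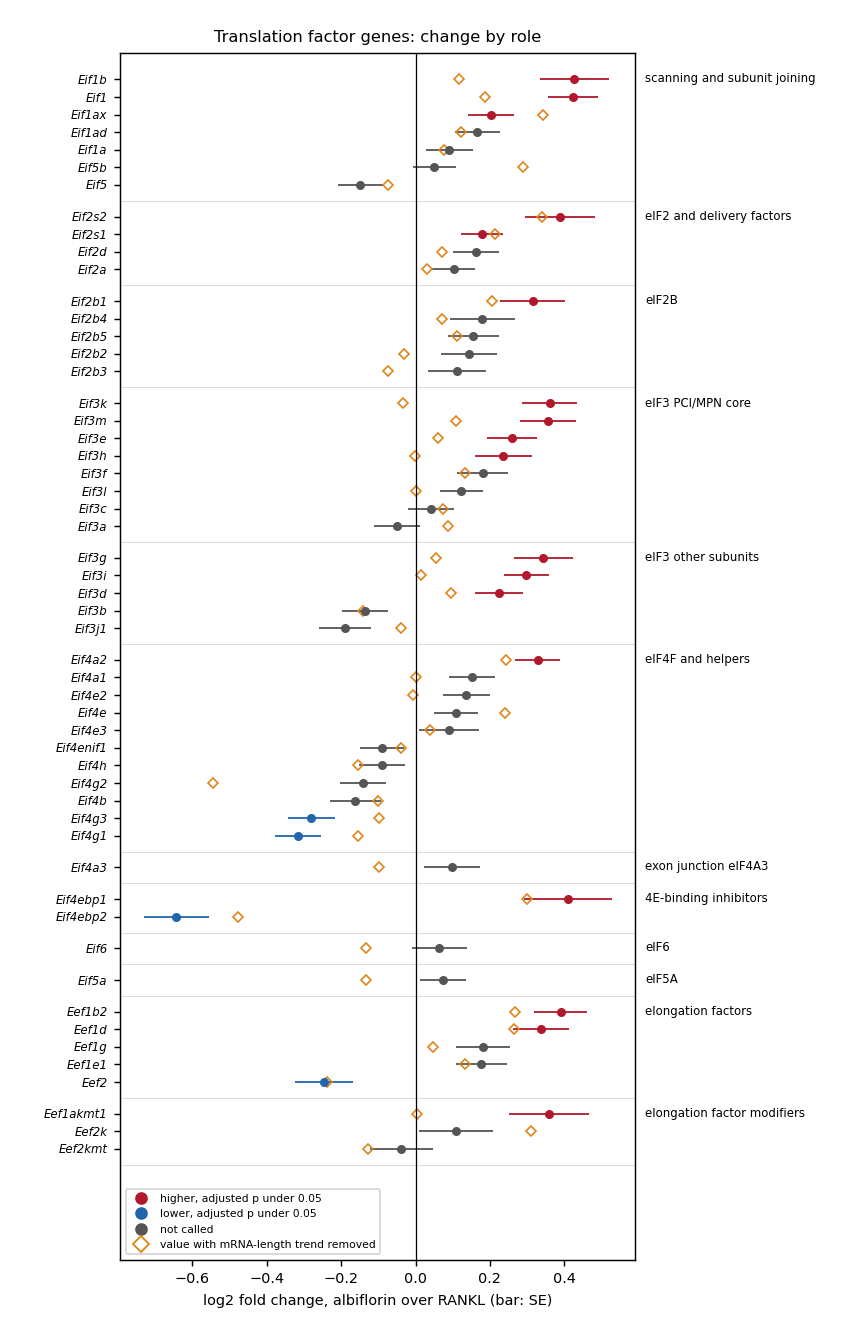
Log2 fold change of albiflorin over RANKL with its SE (filled points) for the 53 tested members by role, coloured by the test result, and the value after removal of the mRNA-length trend (open diamonds). Of the 18 higher members 7 are eIF3 genes, and the 4 lower ones are Eif4ebp2, Eif4g1, Eif4g3 and Eef2.

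Direction followed mRNA length. Genes with short mRNAs were higher and genes with long mRNAs lower with albiflorin throughout the transcriptome: among protein-coding genes 30.1% of mRNAs of 1000 to 2000 nt were called higher and 0.731% lower, and 1.72% of those of 4000 to 8000 nt were called higher and 28.6% lower. Members of the same classes divided 10 higher and 0 lower of 19, and 1 higher and 3 lower of 10. In the class between, from 2000 to 4000 nt, 5 of 21 members were higher and 1 lower (7.19% and 4.95% of all protein-coding genes). Spearman's rho between mRNA length and log2 fold change was -0.583 across the 53 members, as a description of genes that share the same libraries. When each library's trend on mRNA length was removed, rho was 0.118, the count was 9 higher and 3 lower (4.89% and 5.59% of all genes), and the median log2 fold change of the members was 0.05. Removing the trend on the gene length listed in the table instead gave 14 members higher and 5 lower, where 15.1% of all genes were called (7.18% higher, 7.96% lower). Of the calls with the mRNA-length trend removed, 7 higher and 2 lower were shared with those made on the counts as deposited. What made length move with the groups was not tested. The calls described next are set beside their values after removal of this trend.

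**Figure D3:**
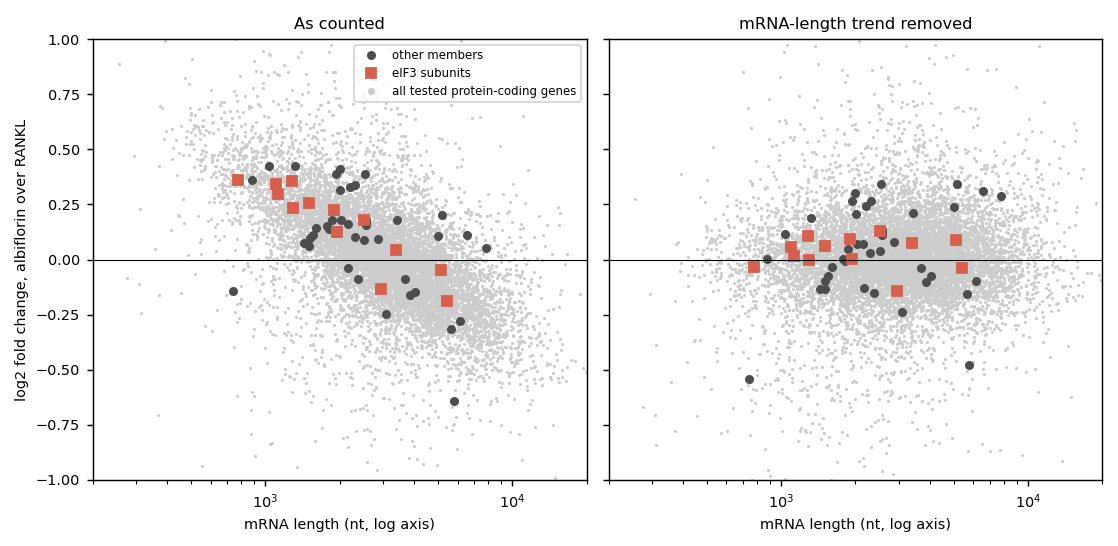
Log2 fold change of albiflorin over RANKL against mRNA length (nt, log axis) for tested protein-coding genes (grey), eIF3 subunit genes (squares) and the other members (circles), as counted (left) and with the mRNA-length trend removed (right). The eIF3 squares descend with length on the left and lie around 0 on the right; 56 genes on the left and 49 on the right fall outside the plotted range.

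Among the 4E-binding inhibitors of cap-dependent initiation, Eif4ebp2 fell under every alternative, while the rise of its paralogue Eif4ebp1 was called on the counts as deposited but not under 7 of the 16 alternatives. Eif4ebp2 (MGP_C57BL6NJ_G0017676, chromosome 10, 62937196 to 62959825 in the coordinates of the deposited table) stood at 104.3, 91.8 and 88.0 CPM in the RANKL libraries and at 57.4, 54.9 and 69.5 CPM in the albiflorin libraries. The groups did not overlap, and all 3 albiflorin libraries were lower. It fell by 0.64 ± 0.0875 on the log2 scale (SE, edgeR adjusted p = 0.000322), the largest change of any tested member, and by 0.48 after removal of the mRNA-length trend (adjusted p = 0.00143). Eif4ebp1 (MGP_C57BL6NJ_G0033998, chromosome 8, 26431757 to 26448223), a target gene of the stress factor ATF4 in many cells, stood at 97.8, 62.5 and 86.8 CPM with RANKL and at 122.1, 104.5 and 100.7 CPM with albiflorin. RANKL replicate 2 was the lowest of the 6, and RANKL replicate 1 lay just under the lowest albiflorin library. The log2 fold change was 0.41 ± 0.118 (adjusted p = 0.0192), but the call ended without RANKL replicate 2 (0.24, adjusted p = 0.0788), without albiflorin replicate 1 (0.31, adjusted p = 0.113), and with DESeq2 (adjusted p = 0.134). It also ended with limma on log2(FPKM + 1) (adjusted p = 0.1) and on log2(FPKM + 0.1) (adjusted p = 0.0977), after removal of the mRNA-length trend (0.30, adjusted p = 0.0858) and after removal of the gene-length trend, which left 0.10 (adjusted p = 0.549). On the FPKM scale the ratio of Eif4ebp1 to Eif4ebp2 within a library was 1.69, 1.23 and 1.78 with RANKL and 3.84, 3.44 and 2.62 with albiflorin. The lowest albiflorin ratio lay above the highest RANKL ratio. This had to follow, because each gene alone already separated the groups, in opposite directions, so it adds no support. On the log2 scale the ratio was higher by 1.08 with albiflorin, and by 0.78 with the mRNA-length trend removed.

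Of the 3 scaffold genes of the cap-binding complex eIF4F, Eif4g1 and Eif4g3 fell, where 11.4% of all genes tested were called lower. Eif4g1 (chromosome 16, 18368851 to 18394915), the main scaffold that joins eIF4E, eIF4A and eIF3, stood at 936.0, 924.7 and 939.4 CPM with RANKL and at 721.5, 737.5 and 791.2 CPM with albiflorin. The RANKL libraries lay close together, well above the albiflorin ones. It fell by 0.32 ± 0.0614 on the log2 scale (adjusted p = 0.00208). Its paralogue Eif4g3 fell by 0.28 ± 0.0622 (adjusted p = 0.00458), from 279.6, 272.1 and 295.6 CPM to 241.7, 219.4 and 236.5 CPM. With the mRNA-length trend removed neither was called (Eif4g1 -0.15, adjusted p = 0.0545; Eif4g3 -0.10, adjusted p = 0.291), while Eif4g1 was called with the trend on the listed gene length removed (-0.19, adjusted p = 0.0188). Eif4g2, a scaffold without an eIF4E site, was at -0.14 (adjusted p = 0.106). Its call as lower after removal of the mRNA-length trend (-0.54, adjusted p = 0.000815) used an mRNA of 742 nt, against a listed gene length of 5660 bases, and with the latter it was at -0.07 (adjusted p = 0.374).

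Of the other 8 tested eIF4F genes and helpers, only the helicase gene Eif4a2 passed, where 23.8% of all genes tested did so. It stood at 281.9, 301.7 and 297.3 CPM with RANKL and 352.9, 381.1 and 372.6 CPM with albiflorin, with no overlap. The log2 fold change was 0.33 ± 0.0604 (adjusted p = 0.00152) and 0.24 after removal of the mRNA-length trend (adjusted p = 0.00818). Eif4a1, the more abundant helicase paralogue, was at 0.15 (adjusted p = 0.0868). The cap-binding protein gene Eif4e stood at 220.9 ± 1.28 CPM with RANKL and 238.3 ± 9.67 with albiflorin (SD, n = 3 per group; log2 fold change 0.11 ± 0.0584, adjusted p = 0.193), and was called higher after removal of the mRNA-length trend (0.24, adjusted p = 0.0125). The remaining members, Eif4b, Eif4h, Eif4e2, Eif4e3 and the eIF4E transporter gene Eif4enif1, lay between -0.16 and 0.14. With the gene-length trend removed Eif4a2 stayed higher. In that fit Eif4a1 (0.17, adjusted p = 0.041), Eif4e (0.19, adjusted p = 0.0257) and Eif4e2 (0.26, adjusted p = 0.0103) were also called higher. Eif4a3, which despite its name belongs to the exon junction complex, was at 0.10 (adjusted p = 0.371).

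**Figure D4:**
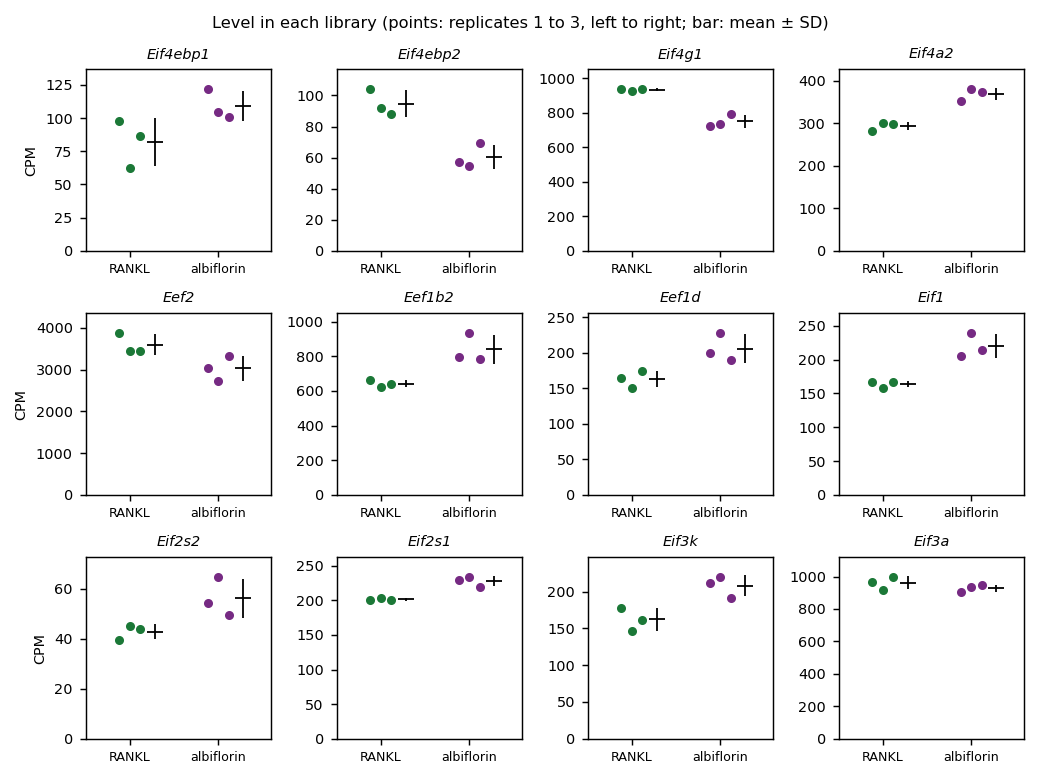
CPM in each library for 12 members (points, replicates 1 to 3 from left to right), with the mean ± SD of each group beside them; every vertical axis starts at 0. The groups do not overlap for any of the genes shown except Eif3a, and the albiflorin points lie below the RANKL points for Eif4ebp2, Eif4g1 and Eef2.

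Elongation factor genes also divided. Eef2 (chromosome 10, 84685449 to 84690749) stood at 3881, 3455 and 3454 CPM with RANKL and at 3028, 2734 and 3334 CPM with albiflorin. The groups did not overlap, but albiflorin replicate 3 came close to the lower RANKL libraries. It fell by 0.25 ± 0.0787 on the log2 scale (adjusted p = 0.0321) and by 0.24 after removal of the mRNA-length trend (adjusted p = 0.0266). Leaving out RANKL replicate 1, albiflorin replicate 1 or albiflorin replicate 2 ended the call (adjusted p = 0.145, 0.0828 and 0.0901), as did limma on log2(FPKM + 1) (0.171). Reads that a processed pseudogene row on chromosome 4 took amounted to 1.68% to 2.79% of the Eef2 count.

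The exchange factor subunit genes of eEF1, which reload eEF1A with GTP, went the other way. Eef1b2 (chromosome 1, 65752963 to 65757637) stood at 662.6, 622.7 and 637.6 CPM with RANKL and at 798.1, 936.3 and 786.6 CPM with albiflorin, with no overlap. It rose by 0.39 ± 0.0717 (adjusted p = 0.00152), and by 0.27 with the trend removed (adjusted p = 0.0073). Eef1d rose from 163.0 ± 11.7 to 205.9 ± 20.1 CPM (0.34 ± 0.075, adjusted p = 0.00464; 0.27 with the trend removed, adjusted p = 0.0142). The scaffold subunit gene Eef1g (0.18, adjusted p = 0.0846) and Eef1e1, whose product belongs to the aminoacyl-tRNA synthetase complex (0.18, adjusted p = 0.0762), did not pass. In each library the FPKM of Eef1b2 relative to Eef2 was 0.174 to 0.188 with RANKL and 0.24 to 0.349 with albiflorin. That these ranges are apart follows from the separation of each gene alone and adds no support. On the log2 scale the ratio of Eef1b2 to Eef2 was higher by 0.64 with albiflorin, and by 0.51 with the mRNA-length trend removed. Among the modifying enzymes, the eEF1A lysine methyltransferase gene Eef1akmt1 rose by 0.36 ± 0.108 (adjusted p = 0.0241) but was at 0.0036 with the trend removed. Leaving out RANKL replicate 1, RANKL replicate 2 or albiflorin replicate 2 also ended its call (adjusted p = 0.0557, 0.1 and 0.112). Eef2k stood at 15.7 ± 0.527 and 16.9 ± 0.0364 CPM (SD, n = 3 per group; 0.11 ± 0.0995, adjusted p = 0.463), and the eEF2 methyltransferase gene Eef2kmt was at -0.04 (adjusted p = 0.792).

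Of the 7 genes for start-codon scanning and subunit joining, 3 rose and 0 fell. Among all genes tested 12.4% were called higher and 11.4% lower. Eif1, the gatekeeper of start-codon choice (chromosome 11, 106270347 to 106272777), stood at 167.1, 158.7 and 166.2 CPM with RANKL and 205.3, 239.8 and 214.9 CPM with albiflorin. All 3 albiflorin libraries were higher, with a log2 fold change of 0.42 ± 0.0662 (adjusted p = 0.000587), and of 0.19 with the trend removed (adjusted p = 0.0333). A processed pseudogene row on chromosome 14 took reads equal to 7.71% to 10.5% of the Eif1 count. The paralogue Eif1b rose by nearly the same amount, 0.43 ± 0.0927 (adjusted p = 0.00399), so the FPKM ratio of Eif1 to Eif1b stayed between 2.58 and 2.82 with RANKL and 2.59 and 2.73 with albiflorin. Once the mRNA-length trend was taken out Eif1b was at 0.12 (adjusted p = 0.423). Eif1ax, an eIF1A gene with a long mRNA, rose by 0.20 ± 0.0619 (adjusted p = 0.0266) and by 0.34 with the trend removed (adjusted p = 0.00304). Its near-copy Eif1a was at 0.09 (adjusted p = 0.319), and reads of these near-identical genes may have been split between them. Eif1ax lost its call when replicate 2 or 3 of RANKL (adjusted p = 0.0852 and 0.1) or replicate 1 or 2 of albiflorin (0.104 and 0.0904) was left out. The joining factor gene Eif5b was at 0.05 (adjusted p = 0.569). With either trend removed Eif5b was called higher, by 0.29 for mRNA length (adjusted p = 0.00693) and 0.22 for gene length (adjusted p = 0.0165). Eif5 lay the other way, at -0.15 (adjusted p = 0.0893), with all 3 albiflorin libraries below the RANKL libraries. Taking out the gene-length trend brought a lower call for Eif5 (-0.18, adjusted p = 0.0347). Taking out the mRNA-length trend did not (-0.07, adjusted p = 0.423).

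All 4 measured genes of eIF2 and of the related factors eIF2A and eIF2D had albiflorin libraries above the RANKL libraries. Among all tested genes 20.8% did so. Of the 4 genes 2 were called higher, against 12.4% of all genes tested. Eif2s2, the beta subunit gene (chromosome 2, 164310707 to 164332649), stood at 39.5, 45.2 and 43.7 CPM with RANKL and at 54.3, 64.8 and 49.4 CPM with albiflorin. It rose by 0.39 ± 0.0934 (adjusted p = 0.00723), and by 0.34 with the trend removed (adjusted p = 0.0217), but missed the threshold with limma on log2(FPKM + 1) (adjusted p = 0.0555). Eif2s1, which encodes the alpha subunit whose phosphorylation slows initiation, stood at 200.8, 203.0 and 199.8 CPM with RANKL and 229.5, 234.0 and 219.7 CPM with albiflorin. Its rise of 0.18 ± 0.0575 (adjusted p = 0.033; 0.21 with the trend removed, adjusted p = 0.0136) lost its call when any 1 library other than albiflorin replicate 3 was left out (adjusted p = 0.0629 to 0.137), and after removal of the gene-length trend (adjusted p = 0.0641). Eif2a (0.10) and Eif2d (0.16) did not pass. With the mRNA-length trend removed they were at 0.03 and 0.07 and were not called. With the gene-length trend removed both were called higher (0.19 and 0.28, adjusted p = 0.023 and 0.00393).

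Of the 5 eIF2B genes only Eif2b1, a regulatory subunit gene, was called, where 23.8% of all genes tested were called (12.4% higher). It stood at 36.3, 30.2 and 35.5 CPM with RANKL and 44.3, 43.0 and 39.5 CPM with albiflorin, a rise of 0.32 ± 0.0875 (adjusted p = 0.016). With the trend removed it was at 0.21 (adjusted p = 0.104), and the call also ended without RANKL replicate 2 (adjusted p = 0.0797) or albiflorin replicate 1 (0.0874). The catalytic subunit gene Eif2b5 stood at 82.6 ± 4.25 and 92.0 ± 5.57 CPM (SD, n = 3 per group; 0.16 ± 0.0674, adjusted p = 0.107). The 5 genes lay between 0.11 and 0.32, and between -0.07 (Eif2b3) and 0.21 (Eif2b1) with the mRNA-length trend removed.

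Of the 13 subunit genes of eIF3, the largest group, 7 were called higher and 0 lower, where 12.4% of all genes tested were called higher. Most of these subunits have short mRNAs, and among protein-coding genes 30.1% of mRNAs of 1000 to 2000 nt and 61.8% of those under 1000 nt were called higher. The calls were Eif3k (0.36 ± 0.0747, adjusted p = 0.00305), Eif3m (0.36 ± 0.0744, adjusted p = 0.00317; a processed pseudogene row took reads equal to 3.86% to 5.87% of its count), Eif3g (0.34 ± 0.0789, adjusted p = 0.00561), Eif3i, Eif3e, Eif3h and Eif3d. Eif3k, a peripheral subunit, stood at 178.0, 146.6 and 162.0 CPM with RANKL and 212.3, 220.2 and 191.9 CPM with albiflorin. The groups did not overlap, with RANKL replicate 2 the lowest. Eif3i, part of the module around the scaffold subunit b, rose from 157.7 ± 6.56 to 193.9 ± 9.06 CPM (0.30 ± 0.0617, adjusted p = 0.00299). The scaffold subunit genes did not pass: Eif3a was at 960.6 ± 39.6 and 928.3 ± 21.3 CPM (SD, n = 3 per group; -0.05 ± 0.0613, adjusted p = 0.61), Eif3c at 0.04 (adjusted p = 0.673) and Eif3b at -0.14 (adjusted p = 0.131). Eif3j1, a loosely attached subunit gene, was at -0.19 (adjusted p = 0.0618).

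The order of the eIF3 genes by change was nearly their order by mRNA length. Spearman's rho was -0.956 over the 13 subunits (-0.692 with the gene length listed in the table), from Eif3k with an mRNA of 774 nt to Eif3j1 with 5413 nt. Eif3b (2945 nt, -0.14) departed from this order, lying in length between Eif3f (2514 nt, 0.18) and Eif3c (3383 nt, 0.04). With the mRNA-length trend removed rho was 0.0165, no subunit was called and the 13 values lay between -0.14 (Eif3b) and 0.13 (Eif3f). The count of 0 stands beside 10.5% called among all genes. With the gene-length trend removed Eif3i (0.28, adjusted p = 0.00299) and Eif3m (0.26, adjusted p = 0.0149) were called higher and Eif3b lower (-0.17, adjusted p = 0.042). The smaller calls also rested on single libraries. Eif3h ended without any 1 library except RANKL replicate 1 or albiflorin replicate 3 (adjusted p = 0.0571 to 0.149), Eif3d without RANKL replicate 2 (0.0729), RANKL replicate 3 (0.056) or albiflorin replicate 1 (0.138), and Eif3e without albiflorin replicate 1 (0.0524).

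The last members showed no called change. Eif5a stood at 819.9 ± 43.9 and 862.8 ± 7.82 CPM (SD, n = 3 per group; 0.07 ± 0.0621, adjusted p = 0.427). Eif6, which keeps free large ribosomal subunits from joining small ones, stood at 107.3 ± 11.6 and 112.0 ± 4.35 CPM (0.06 ± 0.0741, adjusted p = 0.582).

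Across these groups 5 of the 22 calls held in direction and threshold under all 16 alternatives: Eif4ebp2 lower, and Eif1, Eif4a2, Eef1b2 and Eef1d higher. The same count is not given here for all called genes, so whether this share is high or low for these data is not known. The highest adjusted p that any alternative gave them was 0.0178 for Eif4ebp2, 0.018 for Eif4a2, 0.0252 for Eef1b2, 0.0333 for Eif1 and 0.0365 for Eef1d.

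Genes that act on or beside these factors were read out from the same fit. Of 51 tested, 7 were higher and 11 lower (12.4% and 11.4% of all genes tested), and with the mRNA-length trend removed 2 were higher and 5 lower (4.89% and 5.59% of all genes in that fit). Ppp1r15a, the stress-induced phosphatase subunit that removes the inhibitory phosphate from eIF2 alpha, rose from 24.4 to 42.7 CPM (0.81 ± 0.106, adjusted p = 0.000284; 0.79 with the trend removed, adjusted p = 0.000541). Of the 4 eIF2 kinase genes 3 fell, among them Eif2ak4 (-0.26, adjusted p = 0.0109) and Eif2ak2 (-0.26, adjusted p = 0.0183), and none of the 4 was called with the mRNA-length trend removed. In the mTOR and MNK arm, which phosphorylates the 4E-binding proteins and eIF4E, 1 of 10 rose and 4 fell. Once the mRNA-length trend was taken out 0 rose and 1 fell. With the gene-length trend removed 1 rose and 4 fell, with Mknk2 called in place of Tsc1. The list holds activators and inhibitors of mTOR. On the counts as deposited the gene that rose was Rheb, an activator (0.27, adjusted p = 0.0105). The inhibitor genes Tsc1 (-0.35, adjusted p = 0.00587) and Tsc2 (-0.32, adjusted p = 0.00992) were among those that fell. Rptor, the mTOR complex subunit that recognises the 4E-binding proteins, fell by 0.50 ± 0.0704 (adjusted p = 0.000388) and by 0.30 with the trend removed (adjusted p = 0.00556), and Mtor fell by 0.38 ± 0.0807 (adjusted p = 0.00381) but lost its call once the mRNA-length trend was taken out (adjusted p = 0.203). Larp1, which represses mRNAs with a 5′ terminal oligopyrimidine tract, fell by 0.52 ± 0.0711 (adjusted p = 0.000343). With the mRNA-length trend removed it fell by 0.32 (adjusted p = 0.00236). Gigyf2, a partner of the eIF4E homologue eIF4E2, fell by 0.35 ± 0.0695 (adjusted p = 0.00245), was at -0.18 after removal of the mRNA-length trend (adjusted p = 0.0452) and lost its call after removal of the gene-length trend (-0.13, adjusted p = 0.16). The poly(A)-binding protein gene Pabpc1 missed the threshold (-0.18, adjusted p = 0.0508) and was called lower with the mRNA-length trend removed (-0.20). None of the 7 mitochondrial factor genes and 1 of the 8 genes for hypusine and diphthamide, the modifications of eIF5A and eEF2, was called.

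Promoters were looked at because many translation factor genes are known targets of MYC, which binds the E-box CACGTG. RefSeq promoters on GRCm38.p6 (300 bases, from 250 before to 50 after the annotated start) were matched by symbol for 43 of the 57 members. CACGTG, which reads the same on both strands, occurred in 12 of those 43 genes (27.9%), against 11.9% of 8251 tested protein-coding genes and 8.09% of all 27025 genes with a promoter. Unbroken runs of at least 8 C or T letters were sought on the transcript strand within 30 bases of the start. Such a run occurred in 25.6% of the members with a promoter and in 25.6% of the tested protein-coding genes. It was not required to begin at the start, so these shares do not tell which genes have terminal oligopyrimidine mRNAs. The 14 members without a promoter, among them Eef1d, Eef1g and Eif3h, were not searched. The 80 bases before the start are shown for members that fell or rose, with CACGTG in capitals where it occurs there.
Eef2 (lower), chr10:81176551-81176630, + strand: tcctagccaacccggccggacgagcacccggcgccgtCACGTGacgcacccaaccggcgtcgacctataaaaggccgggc
Eif4g1 (lower), chr16:20672647-20672726, + strand: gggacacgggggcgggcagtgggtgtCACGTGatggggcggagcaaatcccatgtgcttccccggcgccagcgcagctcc
Eif1b (higher), chr9:120492526-120492605, + strand: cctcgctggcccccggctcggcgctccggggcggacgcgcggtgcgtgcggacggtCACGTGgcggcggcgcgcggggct
Eif3k (higher), chr7:28981889-28981968, - strand: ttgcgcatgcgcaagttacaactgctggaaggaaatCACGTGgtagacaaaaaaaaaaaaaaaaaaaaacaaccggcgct
Eif4ebp2 (lower), chr10:61452670-61452749, - strand: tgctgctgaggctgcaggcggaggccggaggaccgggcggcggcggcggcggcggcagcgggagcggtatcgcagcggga
Eef1b2 (higher), chr1:63176751-63176830, + strand: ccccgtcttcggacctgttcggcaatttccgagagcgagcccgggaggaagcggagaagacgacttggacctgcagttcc
The match begins 43 bases before the start in Eef2, 54 in Eif4g1, 24 in Eif1b and 44 in Eif3k. Of the 12 member genes with a match, 2 rose (Eif1b, Eif3k), 2 fell (Eef2, Eif4g1), 7 were not called (Eef2k, Eif3a, Eif3f, Eif4a1, Eif4e, Eif4h, Eif5a) and 1, Eif5a2, was not tested. These letters are not in the stretches shown for Eif4ebp2 and Eef1b2, whose changes were among the larger ones. A match is a description of letters and shows no binding.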

How the data were processed

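Gene-level read counts of the 6 libraries were used as deposited, unnormalised, together with the FPKM that the authors derived. The submitters' processing notes name DESeq2 1.42.0, featureCounts 2.0.6-p3, HISAT2 2.2.1, fastp and CASAVA 1.8 without saying what each did. No source used here names the genome build or the strand setting. The identifiers carry the prefix of the C57BL/6NJ assembly. FPKM equalled counts over listed gene length and 1 total per library.

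Samples were grouped by title and columns matched by group letter and replicate number. Members and gene lists were chosen with earlier results of these data known. All rows were fitted with edgeR 4.0.16 (R 4.3.3): filterByExpr, TMM, quasi-likelihood F-test on group alone, Benjamini-Hochberg adjustment over 13158 genes, threshold 0.05. SEs were computed from the log2 fold change and the F statistic (their quotient after taking the root of F). Named members were those of a fixed list (among them Eif2s1, Eif4e, Eif4g1, Eef2), up to 4 called per role with the smallest p, called members of at least 0.4 log2, and the untested; any other was named after its values were seen. Alternatives were RLE scaling, DESeq2 1.42.0, limma-voom (limma 3.58.1), no filter, at least 1 CPM in all libraries, the replicate block, each library left out, limma on log2(FPKM + 1) and log2(FPKM + 0.1), and removal of each library's lowess trend (span 0.3, genes over 3 log2 CPM) on listed gene length or on GENCODE M21 principal mRNA length, matched by symbol. The edgeR, DESeq2 and limma-voom fits and removal of the gene-length trend were checked on simulated counts. Removal of the mRNA-length trend, the replicate block and the FPKM fits were not. 1 of the marker lists is not reported here.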

Additional observations from a re-analysis of the deposited data

How the results depend on the processing

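The counts of called members stayed within 1.5 times their value (18 higher, 4 lower) under RLE scaling, DESeq2, limma-voom, both filters, the FPKM fits and the replicate block. Removing the mRNA-length trend gave 9 members higher, 644 genes higher and 735 lower, and a member median of 0.0484 in place of 0.145; removing the gene-length trend gave 945 genes higher and a median of 0.0475. The FPKM fits called 901 (log2(FPKM + 1)) and 909 (log2(FPKM + 0.1)) genes lower in place of 1496. Without 1 library, 984 to 1753 genes were higher and 914 to 1644 lower, 11 to 20 members higher and 3 to 4 lower, and the median was 0.115 to 0.159. The lowest member count of 11 came without RANKL replicate 2 and without albiflorin replicate 1.

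The called members Eif3h and Eif3k, at 0.236 and 0.361 on the counts as deposited, changed sign when the gene-length or the mRNA-length trend was removed (Eif3h -0.0253 and -0.00145; Eif3k -0.000215 and -0.0325). So did the uncalled Eif3a (0.000543 and 0.0866), Eif5a (-0.129 and -0.134) and Eif6 (-0.0241 and -0.132). With each library left out in turn Eif6 lay between -0.00667 (without RANKL replicate 2) and 0.148 (without RANKL replicate 1). The cause was not tested.

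The replicate numbers share only a number: correlations of same-numbered deviations from the group means were 0.104, -0.126 and -0.212, and libraries of numbers 2 and 3 correlated better with other numbers. With the replicate block 1358 genes were higher and 1214 lower, and 16 and 3 members. Eef2 (adjusted p = 0.0668), Eif1ax (0.0528) and Eif2s1 (0.0737) were not called in that fit.

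Depth limits Eif4e1b, Eif5a2, Eef1a2 and Eif4ebp3, for which no difference was detectable.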
